A study of Mus musculus with 10 samples.

Results

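Heme synthesis and heme breakdown were followed in mouse liver through 9 genes and their 20 probe sets. The genes are Alas1, Alad, Uros, Urod, Cpox, Ppox and Fech, which build heme, and Hmox1 and Blvrb, which act in its breakdown. Members were all probe sets on the array whose platform annotation gives a member as their single symbol, 20 of 34945 such probe sets and 9 of 18193 genes. The genes were selected on known log2 differences between the groups of these same arrays, so their differences, and whether they pass the threshold of the fit over all genes, are a description of that choice and support nothing.

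RNA came from the liver of 10 mice labelled ApoE-/-, a genotype that lacks functional apolipoprotein E, with 1 mouse on each Affymetrix 430 2.0 array. In 5 of them an adenovirus carried a dominant negative form of cJun (dn-cJun 16 to 20), and in the other 5 a control adenovirus carried GFP, a fluorescent protein (control 11 to 15). cJun pairs with Fos and related proteins to form the transcription factor AP-1. Age, virus dose, time after infection and the cells that took up the virus are not given in the sources used here.

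Heme is an iron-holding ring that cytochrome P450 enzymes, catalase and the respiratory chain need as a cofactor. Its synthesis starts in the mitochondrion, passes through the cytosol and ends in the mitochondrion again, and in liver the first enzyme, ALAS1, limits the rate and is itself held down by heme. Heme oxygenase opens the ring and releases iron, carbon monoxide and biliverdin, and the inducible form, HMOX1, is abundant in macrophages that clear red blood cells.

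Before any result, 2 features of the arrays matter. Apoe had a log2 signal of 15.31 to 15.82 in the arrays labelled dn-cJun, against 9.42 to 10.94 in the control arrays. This goes against the ApoE-/- label of the arrays labelled dn-cJun, and the controls carry the same label. Whether the probe set reads RNA that the mutation leaves in place was not tested. In every difference below, a difference in Apoe genotype between the groups cannot be told apart from an effect of dn-cJun. The group is therefore called "labelled dn-cJun". Xist, an RNA made from an inactive X chromosome, stood at 5.96 to 6.63 in the arrays labelled dn-cJun, against 13.71 and 13.63 in controls 14 and 15 and 5.90 to 6.72 in controls 11 to 13. The Y-linked Eif2s3y ran the other way, at 10.58 to 11.13 in the arrays labelled dn-cJun, against 5.22 and 4.08 in controls 14 and 15. In controls 11 to 13 it was 10.99 to 11.06. Controls 14 and 15 thus had the pattern of females and all other arrays that of males, while the labels give no sex. Some results, not all, are also given without controls 14 and 15. The extraction entry of control 11 names Trizol, unlike that of the other arrays. Jun, which encodes cJun, had a log2 difference of -0.07 (SE 0.17). Array medians of the deposited intensity ran from 85.3 to 127.

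All signals below are log2(intensity + 16) after quantile normalization, which gives every array the same distribution. Differences are arrays labelled dn-cJun minus control on that scale, with the standard error of limma's fit over all genes, in which each gene is its brightest probe set. A gene was called when its Benjamini-Hochberg adjusted p was under 0.05.

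ALAS1 joins glycine and succinyl-CoA, the first step of the pathway, and its gene was higher in the arrays labelled dn-cJun. Of the 9 members, 1 (Alas1) passed the threshold of the fit over all genes, on the same difference that chose the members. In the fit over all genes 99 of 12736 were called, 0.777% in all and 0.345% as higher. The first Alas1 probe set, 1424126_at, read 14.84, 14.82, 14.80, 14.80 and 14.95 in arrays 16 to 20, labelled dn-cJun, against 14.02, 14.04, 14.26, 14.51 and 14.52 in controls 11 to 15. All 5 arrays labelled dn-cJun lay above all 5 controls, with a gap of 0.28 between the ranges. Groups that do not overlap were found for 4.22% of the genes tested and, as higher, for 2.1%. The means were 14.84 ± 0.06 and 14.27 ± 0.24 (SD, n = 5 each), a log2 difference of 0.57 (SE 0.10) or a signal 1.49-fold higher in the arrays labelled dn-cJun. Of all genes tested, 4.98% had a difference at least as large in size. With 1 array left out in turn the difference was 0.51 to 0.64, and it stayed past the threshold in 5 of 10 fits. It was not past it without control 13 or without dn-cJun 16, 17, 19 or 20.

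The control arrays differed from each other in Alas1. Controls 14 and 15, with high Xist, stood at 14.51 and 14.52, above the 14.02 to 14.26 of controls 11 to 13. Against controls 11 to 13 the log2 difference was 0.74 (SE 0.07), a signal 1.67-fold higher in the arrays labelled dn-cJun. The other Alas1 probe set, 1455282_x_at, read 12.23, 11.47, 11.45, 11.40 and 11.98 in the arrays labelled dn-cJun, against 11.17, 10.88, 11.21, 11.11 and 11.53 in controls 11 to 15. Control 15 lay inside the range of the arrays labelled dn-cJun, so the groups overlapped here, and the difference of 0.53 (SE 0.16) was close in size to that of the first probe set. In the deposited unit the first probe set averaged 29412 in the arrays labelled dn-cJun and 20465 in the controls.

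**Figure D1:**
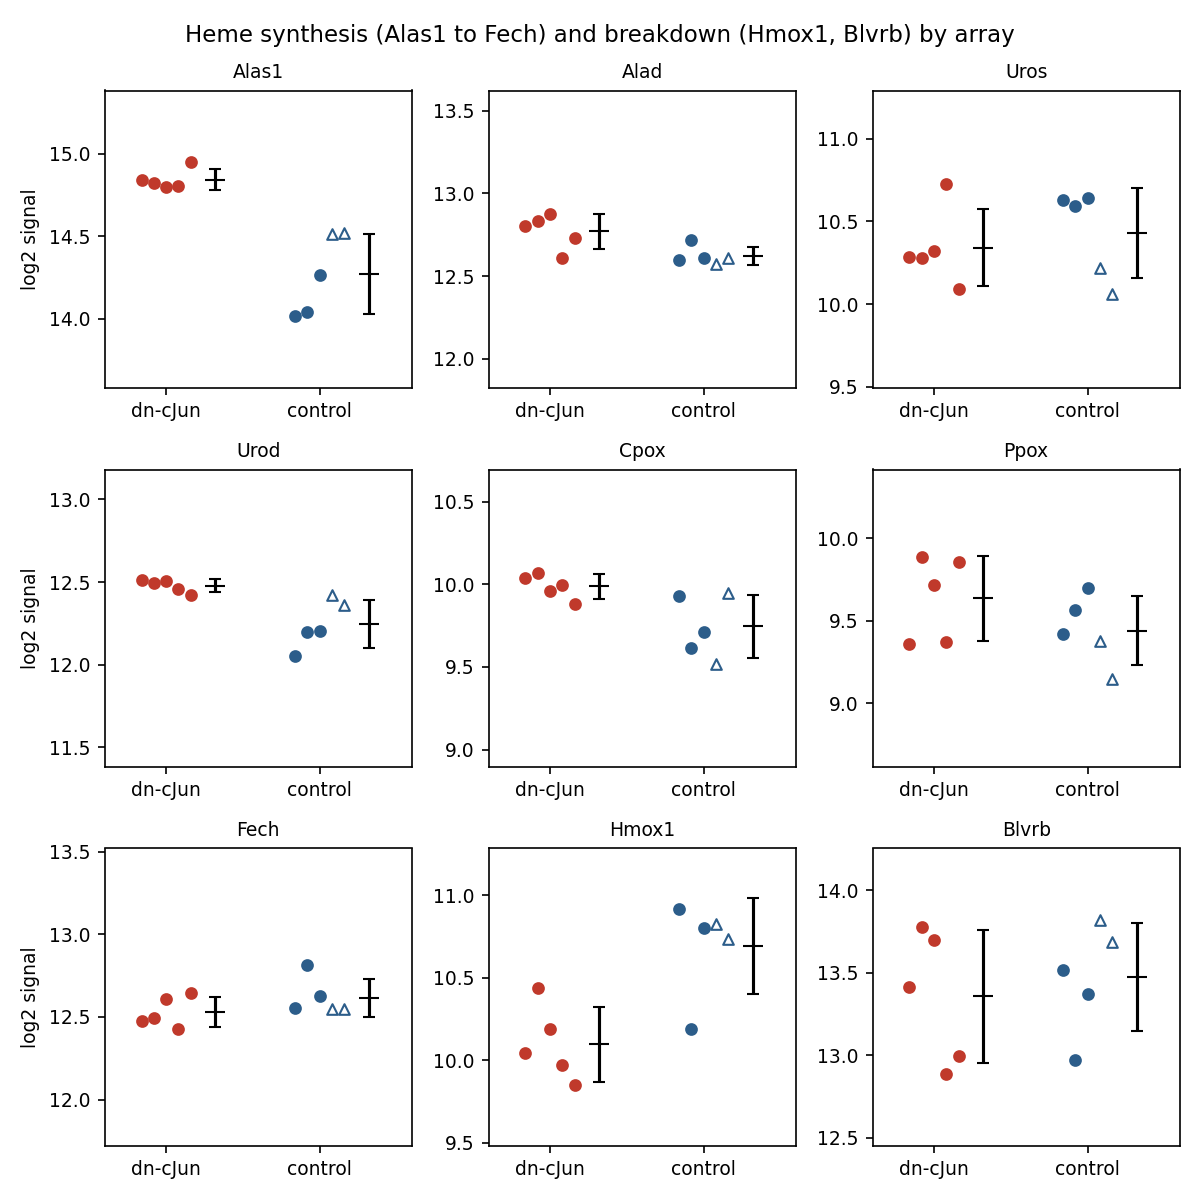
Log2 signal of the brightest probe set of each gene (y axis, log2(intensity + 16), every panel spanning the same number of log2 units) in arrays labelled dn-cJun (red) and control arrays (blue, with open triangles for controls 14 and 15, which have high Xist). Bars give the mean and SD of 5 arrays. Alas1 is separated between the groups, Urod touches at 12.42, and Hmox1 overlaps through control 12.

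Alas1 is shown with its sequence because the results turn on it and because the AP-1 factor that the virus is meant to block binds DNA. RefSeq (GRCm38.p6) gives Alas1 a pair of start sites on the minus strand. The 250 bases before the upstream start, at chr9:106247955-106248204, held none of the 5 motifs searched and are in lower case, 5′ to 3′, and the 30 bases around a match to the NRF1 motif before the downstream start, at chr9:106247905-106247934, have the match, on both strands, in capitals.
Alas1 upstream start: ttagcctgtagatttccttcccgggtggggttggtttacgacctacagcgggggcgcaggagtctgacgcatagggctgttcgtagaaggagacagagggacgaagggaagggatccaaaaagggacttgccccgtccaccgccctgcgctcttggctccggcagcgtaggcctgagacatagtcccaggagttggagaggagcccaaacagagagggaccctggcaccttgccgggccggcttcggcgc
Alas1 downstream start: gcacccaagGCGCATGCGCggcggtcactc

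The motifs were searched on both strands in 32851 windows of 250 bases before a start, of which 11 belong to 7 of the 9 genes. Hmox1 and Fech had no window, so nothing was searched for them. The AP-1 motif TGACTCA was in 0 of the 11 windows and in 4.46% of all windows. The cyclic AMP response element TGACGTCA was in 0 of 11 and in 1.55% of all windows, and the antioxidant response element core TGACNNNGC in 0 of 11 and in 10.2%. The motif GCGCANGCG of NRF1, a factor that drives genes of mitochondrial function, was in 2 of 11 windows, 1 of Alas1 and 1 of Uros, and in 5.16% of all windows. In Alas1 it matched on both strands in the capitals above, with overlapping matches, and once more upstream on the opposite strand. No match overlapped that of another motif. The E-box CACGTG was in 4 of 11 windows, of Alad, Uros and Urod, and in 6.02% of all. These are matches of letters in short windows and say nothing of binding.

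By the brightest probe set of each gene, the steps after ALAS1 differed less. Alad, the cytosolic enzyme that makes porphobilinogen, read 12.80, 12.84, 12.88, 12.61 and 12.73 in the arrays labelled dn-cJun, against 12.60, 12.72, 12.61, 12.57 and 12.61 in the controls. The ranges overlapped, with a difference of 0.15 (SE 0.06). Its other probe set, 1457306_at, gave -0.07 (SE 0.24).

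Uros, which closes the ring, varied among the arrays of both groups. It read 10.29, 10.28, 10.32, 10.73 and 10.09 in the arrays labelled dn-cJun, against 10.63, 10.59, 10.64, 10.22 and 10.06 in the controls. Controls 14 and 15 were the low controls and array 19 the high array of the other group. The difference was -0.09 (SE 0.14), and -0.28 (SE 0.13) without controls 14 and 15.

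Urod, which trims the side chains of the ring, was close to separated. Its brightest probe set, 1443849_x_at, read 12.51, 12.49, 12.51, 12.46 and 12.42 in the arrays labelled dn-cJun, against 12.05, 12.20, 12.20, 12.42 and 12.36 in the controls. The lowest array labelled dn-cJun and the highest control, number 14, met at 12.42. The difference was 0.23 (SE 0.07), a ratio of 1.17, and it was 0.33 (SE 0.07) against controls 11 to 13. The other probe set, 1417206_at, gave 0.16 (SE 0.08), with 11.22 to 11.34 in the arrays labelled dn-cJun and 10.94 to 11.30 in the controls.

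Cpox and Ppox oxidise the side chains and the ring, the last steps before iron enters. Cpox, by probe set 1422493_at, read 10.04, 10.07, 9.96, 9.997 and 9.88 in the arrays labelled dn-cJun, against 9.93, 9.61, 9.71, 9.52 and 9.95 in the controls, a difference of 0.24 (SE 0.10). Controls 11 and 15 lay inside the range of the other group. Its further probe sets gave -0.0043 (SE 0.20) and 0.55 (SE 0.23), so the probe sets of Cpox disagreed in size. Ppox, by probe set 1416618_at, ranged from 9.36 to 9.89 in the arrays labelled dn-cJun and from 9.15 to 9.70 in the controls. The Ppox difference was 0.20 (SE 0.14), and 0.08 (SE 0.15) without controls 14 and 15.

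Fech, ferrochelatase, places the iron in the ring. Its brightest probe set ranged from 12.43 to 12.65 in the arrays labelled dn-cJun and from 12.55 to 12.81 in the controls, a difference of -0.09 (SE 0.07). Its further probe sets gave 0.14 (SE 0.09) and 0.11 (SE 0.12), opposite in sign to the first. Among the 7 genes of synthesis 5 were higher and 2 lower, with a median difference of 0.20, against a median of 0.0015 and 50.3% higher over all genes tested. Without controls 14 and 15 the same counts were 5 and 2 and the median 0.13. These genes were chosen on this same contrast, so the counts and medians describe that choice and support nothing. The median of all 9 members was 0.15, but 0.03 with the mean of probe sets and -0.04 without control 13.

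Of the 20 member probe sets, 17 passed the filter on dim signal, and 10 of these were higher and 7 lower. With every probe set as the unit, 1 member probe set was called, the first of Alas1, beside 0.692% of all probe sets. Of 6 genes with more than 1 probe set above the filter, 4 had probe sets of both signs. The remaining 3 probe sets, 1 each of Uros, Ppox and Fech, were below the filter. That of Ppox, 1441862_at, read 4.28 to 5.11 in the arrays labelled dn-cJun, against 5.01 to 6.15 in the controls, a difference of -1.05 (SE 0.28). It is opposite in sign to the brightest Ppox probe set.

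**Figure D2:**
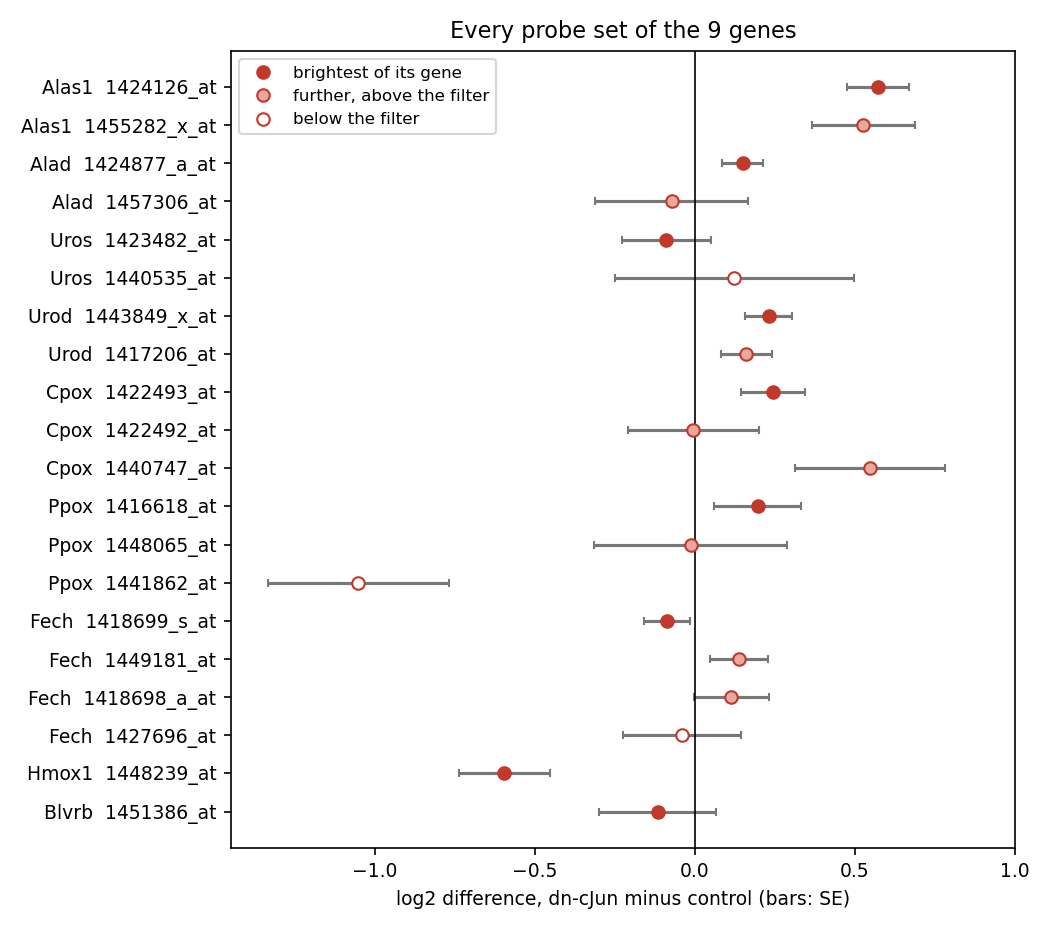
Log2 difference, arrays labelled dn-cJun minus control (x axis, bars are the SE), for the 20 probe sets in pathway order. Both Alas1 probe sets lie above 0.5, Hmox1 lies at -0.60 and the dim Ppox probe set 1441862_at is outermost at -1.05. Probe sets of Alad, Uros, Cpox, Ppox and Fech fall on both sides of 0.

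HMOX1 opens the heme ring, and its gene had the largest difference in size of the 9 in this fit. Hmox1 read 10.04, 10.44, 10.19, 9.97 and 9.85 in the arrays labelled dn-cJun, against 10.92, 10.19, 10.80, 10.83 and 10.73 in controls 11 to 15. In 4 of the 5 controls it was above every array labelled dn-cJun, and control 12 lay within their range. The means were 10.10 ± 0.23 and 10.69 ± 0.29 (SD, n = 5 each), a log2 difference of -0.60 (SE 0.14), so that the signal in the arrays labelled dn-cJun was 0.662 of that in the controls. Hmox1 did not pass the threshold, and 4.53% of all genes tested had a difference at least as large in size. Without controls 14 and 15 the difference was -0.54 (SE 0.17), and without control 12 it was -0.72 and past the threshold.

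Markers of Kupffer cells and other macrophages were set beside Hmox1. Their summed signal, as log2, was 14.57, 14.61, 14.36, 14.39 and 14.60 in the arrays labelled dn-cJun, against 15.01, 14.50, 14.88, 15.11 and 14.94 in the controls. Control 12, the control with low Hmox1, was also the control with the lowest macrophage sum. Of the 9 macrophage markers tested, 6 were lower and 3 higher, and 2 were called as lower beside a background of 0.432%. These were Lyz2, lysozyme, with a difference of -0.70 (SE 0.13, limma adjusted p = 0.0294), and also Cd5l, which macrophages secrete, at -0.57 (SE 0.11, limma adjusted p = 0.0323). Clec4f, a marker of Kupffer cells, was at -0.15 (SE 0.22), and Timd4 was below the filter. The 3 higher markers were Marco at 0.24 (SE 0.58), Vsig4 at 0.05 (SE 0.18) and C1qa at 0.03 (SE 0.15). Cd5l, Csf1r and Lyz2 were the brightest markers and weigh most in the sum, which adds linear signals. The part of macrophages in the Hmox1 difference was not tested, and in whole liver fewer cells of a type and less RNA per cell cannot be told apart.

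**Figure D3:**
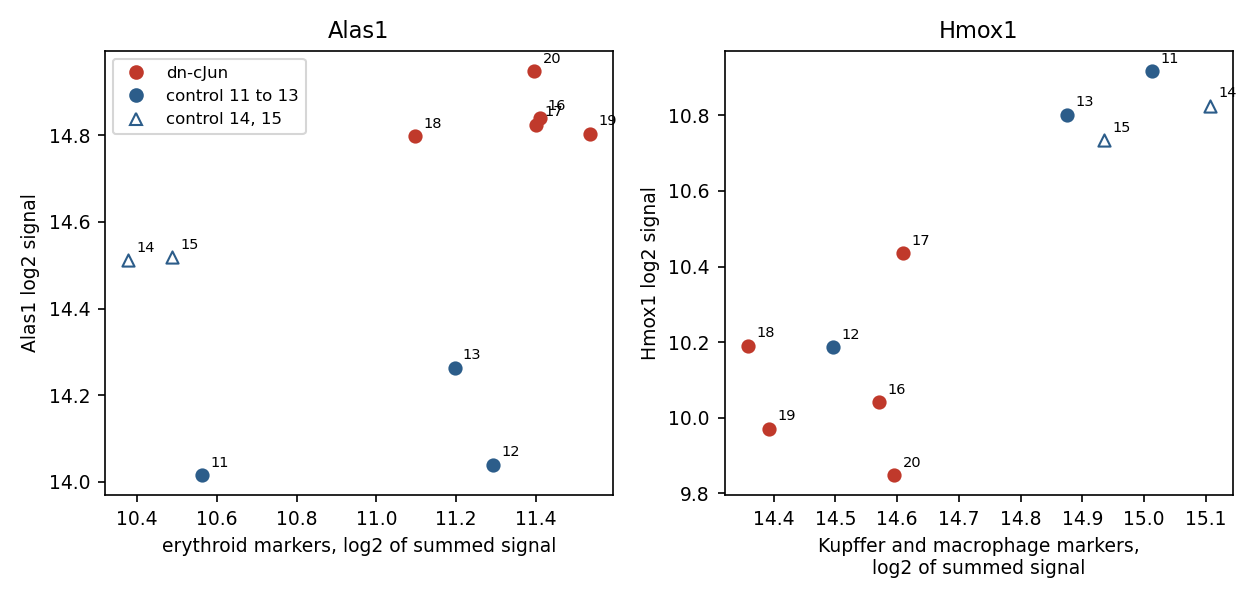
Left, Alas1 log2 signal against the log2 of the summed signal of 8 erythroid markers. Right, Hmox1 log2 signal against that of 10 Kupffer cell and macrophage markers. Each point is an array with its number (red, labelled dn-cJun; blue, controls; open triangles, controls 14 and 15). Control 12 lies among the arrays labelled dn-cJun in the right panel, at 14.50 and 10.19.

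Blvrb, a reductase of biliverdin and flavins, differed more within the groups than between them. It read 13.41, 13.78, 13.70, 12.89 and 12.998 in the arrays labelled dn-cJun, against 13.52, 12.97, 13.37, 13.82 and 13.69 in the controls. The difference was -0.12 (SE 0.19), and 0.07 (SE 0.20) without controls 14 and 15. Low arrays were 19 and 20 in the one group and 12 in the other.

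Developing red cells also make heme, so erythroid markers were set beside Alas1. Their summed log2 signal was 11.10 to 11.54 in the arrays labelled dn-cJun, against 10.38 to 11.29 in the controls, with controls 14, 15 and 11 lowest. Of 10 listed markers 8 had a probe set with a single symbol and 5 were tested. Of these 3 were higher and 2 lower, with a median difference of 0.24 and none called. Beside Alas2, Klf1 was at 0.33 (SE 0.23) and Slc4a1 at 0.24 (SE 0.31). The lower ones were Gata1 at -0.22 (SE 0.25) and Ermap at -0.05 (SE 0.35). Hba-a1, Epb42 and Rhag, markers of red cells, were below the filter in this fit. Alas2, the erythroid form of the first enzyme, read 10.98, 10.92, 10.79, 11.002 and 10.92 in the arrays labelled dn-cJun, against 10.05, 10.95, 10.74, 9.28 and 9.02 in controls 11 to 15. Control 12 lay within the range of the arrays labelled dn-cJun, control 13 just below it, and controls 14 and 15 were lowest. The sum adds linear signals and Alas2 was the brightest marker, so the sum mostly repeats Alas2. The Alas2 difference was 0.91 (SE 0.31, limma adjusted p = 0.181), and 0.34 (SE 0.16) without controls 14 and 15. The part of red cell precursors in the Alas1 difference was not tested. Hepatocyte markers, which check the liver label, were bright on all arrays, with a summed log2 signal of 18.39 to 18.42 in the arrays labelled dn-cJun and 18.30 to 18.44 in the controls.

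The wider pathway was read from 74 other genes of heme metabolism, of which 70 were tested. With limma none was called in either direction, beside 0.777% of all genes, and 40 were higher and 30 lower with a median difference of 0.02. At an unadjusted p under 0.05 there were 11 of the 70, or 15.7%, against 14.9% of all genes tested. Among enzymes of the same steps Hmox2, the constitutive heme oxygenase, was at -0.01 (SE 0.07) and Blvra, the main biliverdin reductase, at -0.05 (SE 0.11).

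Regulators known to act on Alas1 gave 5 of 10 genes an unadjusted p under 0.05, 4 higher and 1 lower, beside 14.9% of all genes, and none was called. The list was written with earlier results of these data known, so this share is a description and supports nothing. The share was the highest among the groups of heme genes, with the others at 0% to 33.3% and regulators of Hmox1 at 15.4%. Nr1d1, which encodes the heme-binding clock repressor REV-ERB alpha, read 8.27, 8.01, 8.68, 7.94 and 6.06 in the arrays labelled dn-cJun, against 9.34, 9.14, 9.06, 9.34 and 9.28 in the controls. The groups did not overlap, which held for Nr1d1 alone of the 70 other heme genes tested and for 4.22% of all genes tested. Array 20 was far below the rest of its group. The difference was -1.44 (SE 0.36, limma adjusted p = 0.0935), and without array 20 it was -1.005 (limma adjusted p = 0.0276). Over the 23 alternatives its adjusted p ran from 0.0202 to 0.198. Foxo1, a factor that insulin restrains, was at 0.30 (SE 0.09, limma adjusted p = 0.153). Ppargc1a, the coactivator that raises Alas1 in fasting, was at 0.21 (SE 0.21). Of the same list, Rxra was at 0.25 (SE 0.11), Hnf4a at 0.21 (SE 0.08) and Nr1d2 at -0.10 (SE 0.07).

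Nr1i3 encodes CAR, a receptor through which drugs induce Alas1 and cytochromes P450. It read 11.42, 11.69, 11.47, 11.04 and 11.46 in the arrays labelled dn-cJun, against 10.29, 10.82, 10.79, 11.83 and 11.87 in controls 11 to 15. As with Alas1, controls 14 and 15 were the high controls, but here they exceeded the arrays labelled dn-cJun. The difference was 0.30 (SE 0.26, limma adjusted p = 0.643), and 0.78 (SE 0.15, limma adjusted p = 0.0502) without controls 14 and 15, with an adjusted p of 0.0269 to 0.907 over the 23 alternatives. Nr1i2, which encodes the related drug receptor PXR, was at 0.25 (SE 0.10, limma adjusted p = 0.236).

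Regulators known to act on Hmox1 gave 5 higher and 8 lower genes among 13, with a median of -0.07 and none called. Bach1, the heme-sensing repressor of Hmox1, was at 0.0050 (SE 0.08). Nfe2l2, which encodes the activator NRF2, was at -0.24 (SE 0.12, limma adjusted p = 0.362). Its small MAF partner Mafg was at -0.21 (SE 0.08, limma adjusted p = 0.239).

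Heme transport and the proteins that use heme showed no called gene among those tested. Slc25a38, which carries glycine into mitochondria, had the smallest p of 11 mitochondrial genes, at 0.32 (SE 0.16, limma adjusted p = 0.359). Among 13 carriers and scavengers the smallest p was that of Flvcr1, a heme exporter, at -0.43 (SE 0.15, limma adjusted p = 0.190). Among 15 heme proteins of liver it was that of Cyp51, an enzyme of sterol synthesis, at -0.18 (SE 0.10, limma adjusted p = 0.425), while the abundant cytochrome Cyp2e1 was at 0.01 (SE 0.06). Abcc2, which exports conjugated bilirubin into bile, was at 0.25 (SE 0.11, limma adjusted p = 0.326). Cyp4a10 and Ugt1a1 were not analysed here.

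**Figure D4:**
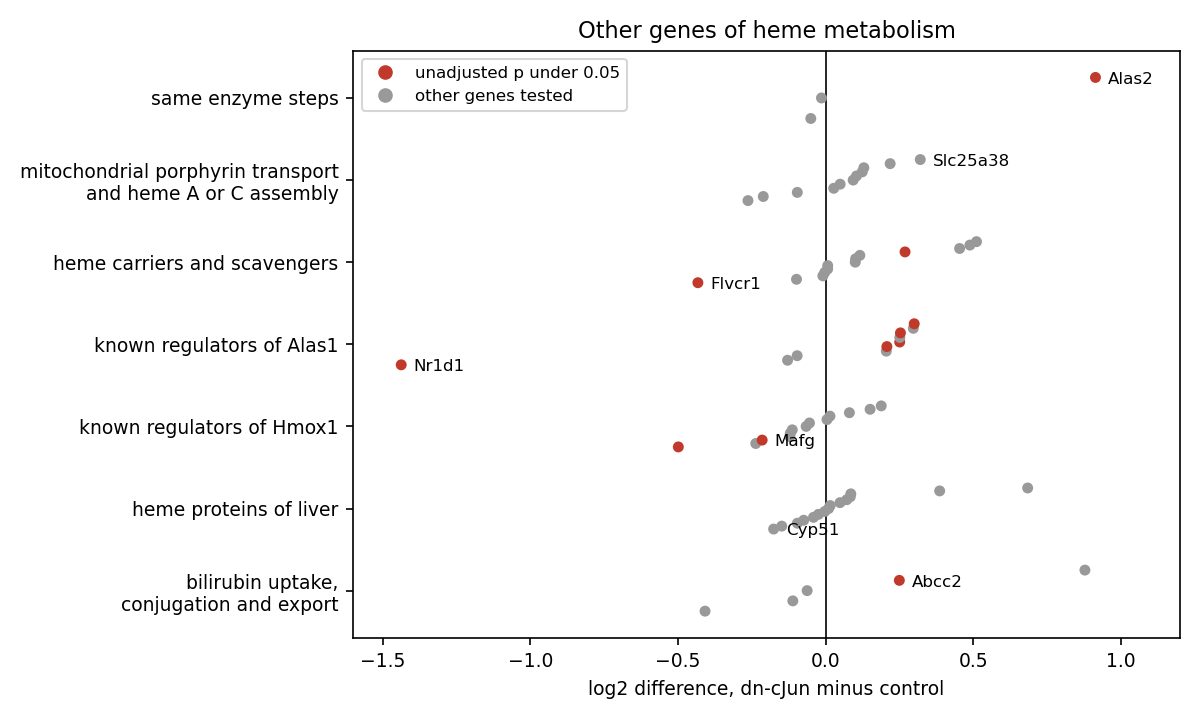
Log2 difference, arrays labelled dn-cJun minus control (x axis), of the 70 other genes of heme metabolism tested, by group of the list (y axis, small offsets order the genes). Red points have an unadjusted p under 0.05, and the gene with the smallest p of each group is named. Nr1d1 at -1.44 and Alas2 at 0.91 are the outermost points.

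Likeness of pattern was measured inside the groups, as Pearson's r of deviations from the group mean over 10 arrays, compared with 12735 genes, so that the difference between the groups plays no part. The genes most like Alas1 were Msr1 (r = 0.981), Gstt1 (0.970), Lratd2 (0.969), Eva1b (0.963) and Efhd2 (0.961). Without controls 14 and 15 their r was 0.863 to 0.955 and 0 of the 5 were still among the 5 most alike. Of the members, Urod was most like Alas1, at r = 0.818, but at 0.219 without controls 14 and 15, and Uros was opposite, at -0.758 and -0.332. The genes most like Hmox1 were Ifi204 (r = 0.951), Sgcb (0.948), Arrdc1 (0.946), Rps7 (0.944) and Ctsz (0.937), with 0.939 to 0.963 without controls 14 and 15, where 1 of the 5 (Arrdc1) was still among the 5 most alike. Blvrb was the member most like Hmox1, at r = 0.823 and at 0.841 without controls 14 and 15. Alas1 and Hmox1 themselves had r = 0.188.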

How the data were processed

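The authors deposited 1 linear intensity per probe set and array, and no source used here names the software. Divided by a factor of 0.887 to 1.22, which sets its trimmed mean to 500, each column gave whole multiples of 0.1 in 100% of its values under 100. Columns were taken as log2(intensity + 16). Array medians spanned 0.50 on that scale, so quantile normalization was applied (limma 3.58.1, R 4.3.3). Of 45101 probe sets, 64 controls were left out, 34945 had 1 symbol in the platform annotation, 932 several and 9160 none. A gene's probe set of highest mean stood for it, and genes under the 40th percentile were left out, which left 12736. Groups were compared with lmFit and eBayes (two-sided, intensity trend) and p-values adjusted by Benjamini-Hochberg. The fit was tested on simulated data with independent noise. Its limit on genes found was set for planted differences larger than any member's, so it does not bear on differences of this size.

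The 9 genes, the lists and the rule for named genes were chosen with earlier results of these data known. The rule takes all members, every called gene and the smallest p of each group of the heme list, and the 5 genes most like Alas1 and Hmox1. Other list genes were named for their role after values were seen. Replicate numbers do not repeat between the groups. That each array holds a separate mouse is per the labels. The number of arrays limits the precision. Alternatives were other scalings, pseudocounts, filters, probe set rules, eBayes settings and arrays left out. Sequences are from RefSeq, GRCm38.p6. Figures were drawn with matplotlib.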

Additional observations from a re-analysis of the deposited data

Results flagged for a closer look

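In 5 of 40 groups of 5 arrays checked, 1 array lay far from the other 4 by the gap between it and its nearest neighbour. If the groups were independent, chance would give about 1 in 20 groups, or 2. They come from 20 probe sets on the same 10 arrays, some of the same gene, so no excess can be read from this. Alas1 (1424126_at) was 14.95 in dn-cJun 20, against 14.80 to 14.84 in the other 4 of that group. Hmox1 was 10.19 in control 12, with 10.73 to 10.92 in the remaining 4, and Alad (1424877_a_at) was 12.72 in control 12, against 12.57 to 12.61. A dim Ppox probe set (1448065_at) was 7.44 in dn-cJun 20, against 5.91 to 6.35 in the rest of the group. The Fech probe set below the filter (1427696_at) was 4.66 in dn-cJun 19, against 4.31 to 4.37.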

How the results depend on the processing

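Alas1 was higher in the arrays labelled dn-cJun under all 23 alternatives, by 0.51 to 0.74, and was called in 16. Its call was lost with the mean of its probe sets (0.55), in eBayes without trend, and without control 13 or dn-cJun 16, 17, 19 or 20. Hmox1 was lower under all 23, by -0.80 to -0.53, and was called with the values as deposited and without control 12. Urod was called once, with a term for controls 14 and 15. Signs changed in 3 alternatives for Blvrb, in 2 each for Fech and Ppox and in 1 each for Alad, Uros and Cpox. Cpox turned to -0.17 without control 13, where another probe set was the brightest. The values as deposited shift the median of all genes by -0.19, and Alas1 was at 0.53 and Alad at -0.0084 on that scale.

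The 1 member called became 2 with the values as deposited, with the term for controls 14 and 15 and at a threshold of 0.1. It became 0 with the mean of probe sets, in eBayes without trend and at 0.01, and was 0 to 2 with 1 array left out. Of the other heme genes, 4 were called as lower with the values as deposited (Flvcr1, Mafg, Mafk and Nr1d1), 1 at 0.1, and 0 to 1 with 1 array left out. As higher, 1 (Nr1i3, at 0.78) was called with the term for controls 14 and 15. All genes called were 490 as deposited (22 higher, 468 lower), 65 with equal array medians (20 higher, 45 lower), 44 with the mean of probe sets, 9 without trend, 52 without controls 14 and 15, 156 with a term for them, 8 at 0.01, 250 at 0.1, 187 by probe set, and 13 (without dn-cJun 17) to 205 (without control 12) with 1 array left out. Except for the Cpox probe set, the cause of these changes was not tested. No paired analysis was possible because the replicate numbers do not repeat between the groups.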
